A study of Mus musculus with 6 samples.

Results

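The axon guidance ligands and receptors of sorted mouse skin cells were compared between samples labelled as Zfp750 knockout, with recombination driven from Lrig1, and control samples. The members were taken by gene name from the protein-coding genes of the deposited table: the semaphorins of classes 3 to 7, plexins, Slits, Robos, netrins and netrin-Gs, the netrin receptors Dcc, Neo1 and Unc5a to Unc5d, and the ephrins with their Eph receptors. This gave 66 genes of 23934 in the table, of which 60 passed the filter on low values (1 per 1000000 of its total in 3 or more of the 6 libraries) and were tested among 15935 genes. Of the 60 tested members, 57 reached that level in all 6 libraries. Ephb1, Efna3 and Robo4 did not. The study compared 3 control with 3 knockout samples at day 50, all from mice given 4-hydroxytamoxifen (4-OHT) as pups, from day 4 to 7 or from day 5 to 8. Zfp750 encodes a zinc finger transcription factor known for its part in epidermal differentiation. All samples carried 1 allele of a recombinase that tamoxifen activates, under Lrig1, a stem cell gene of the hair follicle. It is labelled Lrig1-CreER +/- in 1 control and 1 knockout sample and Lrig1-CreERT2 +/- in 2 of each. The knockouts were labelled ZNF750 fl/fl, and the controls were wt/fl in 2 samples and wt/wt in 1. Rosa26 was labelled -/- in all 3 knockouts and in 2 controls and +/- in the other control, although the sorted cells were described as expressing tdTomato.

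Guidance molecules were named for steering growing axons, and they act in many tissues outside the nervous system. Class 3 semaphorins are secreted and bind neuropilins that signal through plexins, whereas most other semaphorins are membrane-bound and bind plexins directly. Slits are large secreted ligands of Robo receptors, netrins act through Dcc, neogenin and Unc5 receptors, and ephrins signal between touching cells through Eph receptor tyrosine kinases. In skin these families are known from the patterning of sensory nerves and blood vessels, from keratinocyte adhesion and from fibroblast and immune cell behaviour.

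The control libraries (S2, S3, S4) and knockout libraries (S5, S6, S7), numbered as in their column names, held 15310168 to 20705368 estimated reads each. Values below are the authors' normalized counts, reads divided by 1 size factor per library, and a floor of 3 reads corresponded to 2.39 to 3.81 of these units. Zfp750 stood at 41.9, 3.75 and 314 in S2, S3 and S4 but at 4.90, 1.82 and 7.16 in S5, S6 and S7. The value of S3 is thus within the range of the knockouts, and the label of this control is not checked by the targeted gene. The samples were labelled as skin, and of the marker lists the fibroblast list had the highest sum in every library. Its 7 markers summed to at least 2983870 in each control and to at most 1208780 in each knockout, with 3 collagens making up most of the sum. The Pdgf receptor gene Pdgfra, another gene of that list, was higher in the knockouts (23877 to 29489, against 10886 to 11482). The other genes of the list, Dcn, Lum and Dpt, had overlapping groups. The sum of 8 keratinocyte markers was 4958, 557 and 22528 in S2, S3 and S4, against 2927, 2599 and 20499.9 in S5, S6 and S7. The sum of 4 leukocyte markers was 136, 84.9 and 1258 in the controls, with 536, 1764 and 4594 in the knockouts. Marker sums were higher in every knockout than in every control for mast cells (44.5 to 619 against 1240.5 to 3371) and sebocytes (6029 to 8173 against 9875 to 48487). This also held for neutrophils (at most 19.3 against 57.9 to 661), endothelium (1439 to 2269 against 2977 to 9548) and melanocytes (1074 to 1999.7 against 2053 to 2384). Mitf made up most of the melanocyte sum (964 to 1860 against 1924 to 2282). Groups overlapped for the melanocyte markers Dct, Tyr, Tyrp1 and Pmel, while Mlana, higher in the knockouts, was at most 6.86 in any library. The part of these cell types in the changes below was not tested. Of 6 neuron markers 2 were in the table, Rbfox3 (11.9 to 26.9) and Tubb3 (30.3 to 105). In such bulk samples, fewer cells of a type and less RNA per cell cannot be told apart.

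Of the 60 tested members, 5 rose and 4 fell in the knockout (limma, Benjamini-Hochberg adjusted p under 0.05). The risers were the semaphorins Sema7a and Sema5a, the ephrin receptor Epha7, the plexin Plxna4 and the Slit receptor Robo2. The secreted semaphorins Sema3b and Sema3c, the basement membrane netrin Ntn4 and the netrin receptor Neo1 fell. The 9 called members are 15% of those tested, where 6.71% of all tested genes were called (4.12% higher and 2.59% lower). The median log2 fold change of the members was -0.12, beside 0.01 over all tested genes. It lay within 1 of 0 for 43 of the 60 tested members and for 13867 of all 15935 tested genes. Sema7a, Sema5a, Sema3b and Sema3c stayed called in the fits without each library in turn and under 8 other settings. Without knockout S6 those 4 were the only members called.

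Upstream sequence is shown for 2 members that rose, Sema7a and Sema5a, and 2 that fell, Sema3c and Neo1, to set genes of opposite direction side by side. RefSeq promoter windows (GRCm38.p6) were found for 7 of the 9 called members. The 250 bases before the most upstream RefSeq start are printed 5′ to 3′ on the strand of the gene, at chr9:57939862-57940111 (plus strand) for Sema7a, chr15:32244563-32244812 (plus strand) for Sema5a, chr5:17574566-17574815 (plus strand) for Sema3c and chr9:59036442-59036691 (minus strand) for Neo1. Capitals mark the GC box GGGCGG or its reverse complement CCGCCC, and the letters CCNNAGGC or GCCTNNGG, a motif linked to human ZNF750.
Sema7a: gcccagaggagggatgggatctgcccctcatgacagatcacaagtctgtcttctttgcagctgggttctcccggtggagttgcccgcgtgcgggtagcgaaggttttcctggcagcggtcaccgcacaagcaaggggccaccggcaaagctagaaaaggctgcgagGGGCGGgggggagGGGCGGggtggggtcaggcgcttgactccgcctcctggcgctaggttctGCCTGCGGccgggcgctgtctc
Sema5a: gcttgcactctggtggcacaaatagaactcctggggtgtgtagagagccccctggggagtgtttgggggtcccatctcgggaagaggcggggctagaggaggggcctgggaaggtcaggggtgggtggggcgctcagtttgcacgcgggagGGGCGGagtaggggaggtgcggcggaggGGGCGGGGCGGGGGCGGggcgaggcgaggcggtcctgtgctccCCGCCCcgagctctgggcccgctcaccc
Sema3c: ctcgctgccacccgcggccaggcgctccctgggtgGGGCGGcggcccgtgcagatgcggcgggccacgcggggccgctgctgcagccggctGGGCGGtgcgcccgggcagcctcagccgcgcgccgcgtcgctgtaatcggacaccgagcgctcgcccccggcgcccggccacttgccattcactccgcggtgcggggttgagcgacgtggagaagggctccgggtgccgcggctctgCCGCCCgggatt
Neo1: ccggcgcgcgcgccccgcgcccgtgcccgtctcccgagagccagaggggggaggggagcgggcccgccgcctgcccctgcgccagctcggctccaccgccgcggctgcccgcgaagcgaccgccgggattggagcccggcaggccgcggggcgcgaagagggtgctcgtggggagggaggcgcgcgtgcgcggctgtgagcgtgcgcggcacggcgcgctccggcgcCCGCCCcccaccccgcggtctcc

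The GC box occurred 2 times in the Sema7a window, 5 times in that of Sema5a, 3 times in that of Sema3c and 1 time in that of Neo1, counting overlapping matches on both strands, where 32.7% of all 32851 RefSeq windows of this length hold at least 1. The CCNNAGGC letters occurred 1 time in the Sema7a window and in none of the other 3, and 20.4% of all windows hold them. The GC content was 66.4% for Sema7a, 72% for Sema5a, 78.4% for Sema3c and 83.2% for Neo1. A match describes these letters only, and among the windows shown a GC-rich one stood before genes that rose and genes that fell. Of the windows not shown, those of Epha7 and Ntn4 had a GC content of 69.2% and 73.2%. The window of Robo2, which rose, had 53.2% and 0 GC boxes. For this window alone, the bases just after the start matched no GENCODE M21 transcript of the gene, so the start is uncertain.

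Gene positions below are the table's own, whose build was not given in the sources used here, and they span the whole gene. The GRCm38.p6 window printed above for Sema7a lies beyond the end of that gene in these positions. Both sets of coordinates should therefore not be combined. Among the class 3 semaphorins, Sema3b and Sema3c fell and none rose. Sema3b (ENSMUSG00000057969, chromosome 9, 107474873 to 107486429 on the minus strand) encodes a secreted semaphorin known as a tumour suppressor. It was at normalized values of 6133, 9135 and 3574 in S2, S3 and S4 (controls) and at 635, 667 and 582 in knockouts S5, S6 and S7. The groups lay far apart, and the 3 knockouts were closer to each other than the controls were. The log2 fold change was -3.20 ± 0.32 (SE; adjusted p = 0.00244). Sema3c (ENSMUSG00000028780, chromosome 5, 17779279 to 17935267 on the plus strand), a neuropilin ligand known from vessel and nerve patterning, was at 6210.0, 10924.5 and 7003 in the controls and at 1910.2, 752 and 1018 in the knockouts. Every knockout value lay below every control value, with S5 the highest knockout (-2.77 ± 0.36, adjusted p = 0.00700). Both falls ran beside the lower fibroblast marker sum given above, which was mostly 3 collagens. The part of fibroblasts in the falls was not tested.

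The other 5 class 3 genes did not pass the test. Sema3g, an endothelial ligand of neuropilin 2, was at 277, 232 and 418 in the controls and at 1090.4, 439 and 476 in the knockouts (log2 fold change 1.01 ± 0.38, adjusted p = 0.165). The groups did not overlap, but S5 stood well above the other knockouts. Sema3a, the prototype axon repellent, was at 1175, 1852 and 642 in the controls and at 1381, 3286 and 2013 in the knockouts, with overlapping groups (0.90 ± 0.43, adjusted p = 0.266). Sema3f, which acts mainly through neuropilin 2, had a log2 fold change of 0.60 ± 0.42 (adjusted p = 0.439). Sema3d was at -0.89 ± 0.37 (adjusted p = 0.202) and Sema3e, which binds plexin D1 without a neuropilin, at -0.96 ± 0.55 (adjusted p = 0.342).

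The makeup of the class 3 family differed between the groups when values were divided by the length of the longest protein-coding transcript of GENCODE M21. Sema3b held 51.0%, 49.3% and 35.7% of the family's per-kilobase total in S2, S3 and S4 (controls), and 14.0%, 15.1% and 14.0% in knockouts S5, S6 and S7. Sema3c held 32.1%, 36.6% and 43.4% in the controls, against 26.1%, 10.6% and 15.2% in the knockouts. Sema3b and Sema3c were thus the 2 highest class 3 genes in each control, while the highest was Sema3c in S5 and Sema3a in S6 and S7. Sema3a held 5.63%, 5.74% and 3.69% in the controls, against 17.4%, 42.8% and 27.9% in the knockouts. A share rises when other members fall, and the level of Sema3a itself did not pass the test.

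**Figure D1:**
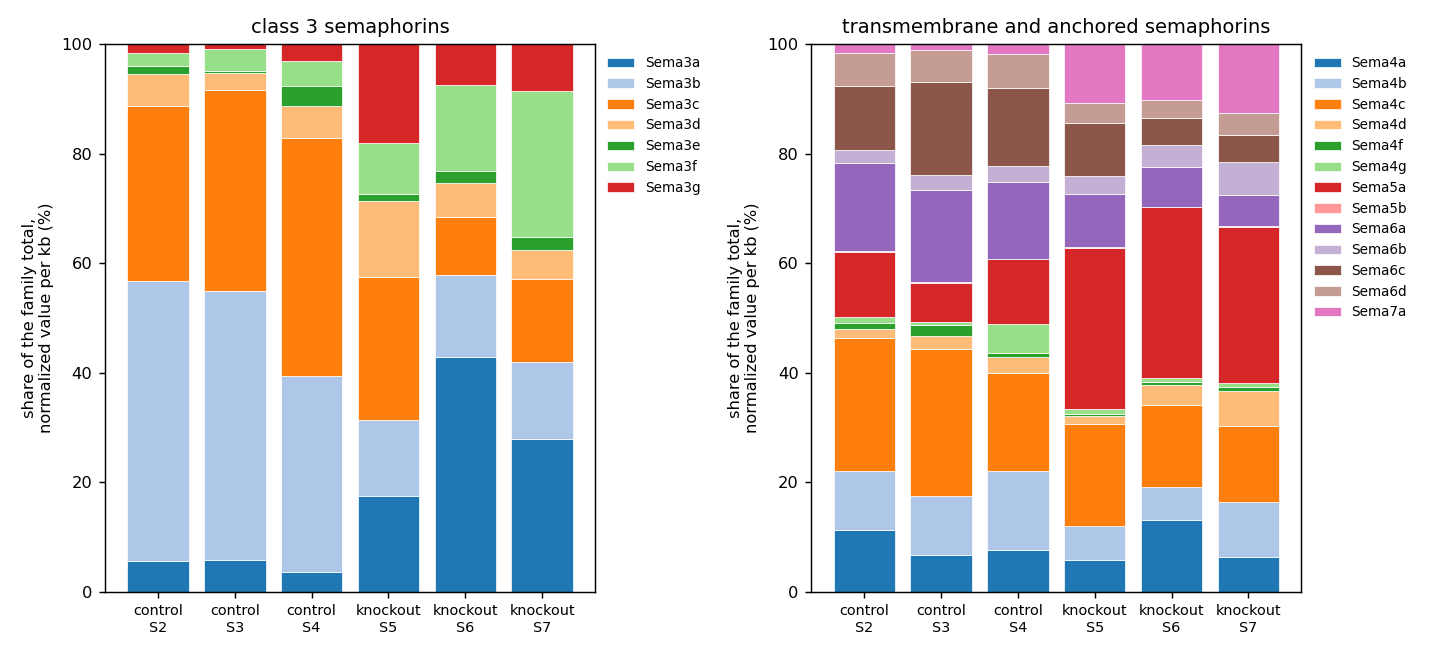
Share of each class 3 semaphorin (left) and each transmembrane or anchored semaphorin (right) in its family's total, as normalized value per kilobase of transcript (percent, vertical axis), in the 3 control and 3 knockout libraries (horizontal axis). Sema3b falls from 35.7% to 51.0% in the controls to 14.0% to 15.1% in the knockouts, and Sema5a goes from 7.25% to 11.9% to 28.5% to 31.1%.

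Of the 12 tested semaphorins of classes 4 to 7, Sema7a and Sema5a rose and none fell. Sema7a (ENSMUSG00000038264, chromosome 9, 57847395 to 57870149 on the plus strand) is held to the membrane by a lipid anchor and binds plexin C1 and integrins with the beta 1 chain. It was at 78.8, 56.2 and 78.2 in the controls and at 631, 599 and 815 in the knockouts. The spread within each group was small beside the gap between them (log2 fold change 3.11 ± 0.21, adjusted p = 0.000646, the lowest p of the tested members). Sema5a (ENSMUSG00000022231, chromosome 15, 32244956 to 32696488 on the plus strand), a transmembrane semaphorin with thrombospondin-type repeats, was at 1787, 1200.3 and 1604 in the controls and at 5667, 6003 and 6008 in the knockouts. The 3 knockouts lay within a narrow band above all controls (1.96 ± 0.18, adjusted p = 0.00211). Per kilobase, Sema5a was the highest gene of these classes in every knockout, whereas Sema4c was the highest in every control.

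A further 3 genes of these classes had groups that did not overlap without passing the test. Sema6b, a transmembrane ligand of plexin A4, was at 129.6, 159 and 143 in the controls and at 209.8, 267 and 435 in the knockouts (0.97 ± 0.28, adjusted p = 0.0870). Sema6a, which also binds plexin A4, was at 1529, 1751 and 1209 in the controls and at 1200.2, 894 and 765 in the knockouts, the groups separated by a narrow gap (-0.65 ± 0.22, adjusted p = 0.128). Sema6d had a log2 fold change of -0.31 ± 0.16 (adjusted p = 0.298). Sema4c, the highest of these genes per kilobase in the controls, was at 1311, 1600.1 and 873 in the controls and at 1284, 1044 and 1059 in the knockouts, with overlapping groups (-0.12 ± 0.24, adjusted p = 0.801). Sema4d, a semaphorin of lymphocytes and a ligand of plexin B1, was at 113, 165 and 166 in the controls and at 119, 287 and 555 in the knockouts (0.84 ± 0.50, adjusted p = 0.358). Its highest value was in S7, the library with the highest leukocyte marker sum, and the part of leukocytes in it was not tested. The other 5 tested genes, Sema4a, Sema4b, Sema4f, Sema4g and Sema6c, had log2 fold changes of -0.76 to 0.32.

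Among the semaphorin receptors 1 of 8 tested plexins was called. Plxna4 (ENSMUSG00000029765, chromosome 6, 32121203 to 32565128 on the minus strand), a receptor for Sema3a with neuropilin 1 and for class 6 semaphorins, rose from 108, 179.9 and 161 in the controls to 394, 528 and 461 in the knockouts. The lowest knockout was above the highest control (log2 fold change 1.59 ± 0.23, adjusted p = 0.00996), and the call was lost without S6 (adjusted p = 0.0549). Plxna3, a close relative on the X chromosome, was at 490.5, 853 and 695 in the controls and at 366, 200.5 and 108 in the knockouts (-1.68 ± 0.42, adjusted p = 0.0571). It passed the test only in the fit without S5, the highest knockout (adjusted p = 0.0216). The highest plexins per kilobase, Plxnb2 and Plxna1, ranked first and second in all 6 libraries. Plxna1 was at 3644, 4561 and 4046 in the controls and at 4197, 3825 and 4796 in the knockouts (0.06 ± 0.17, adjusted p = 0.856). Plxnb2 had a log2 fold change of 0.31 ± 0.20 (adjusted p = 0.397) and Plxnd1, the receptor of Sema3e, of 0.11 ± 0.29 (adjusted p = 0.852). Plxnc1, the receptor of Sema7a, was at 31.8, 35.0 and 90.0 in the controls and at 38.2, 67.4 and 126 in the knockouts, with overlapping groups (0.48 ± 0.49, adjusted p = 0.601).

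**Figure D2:**
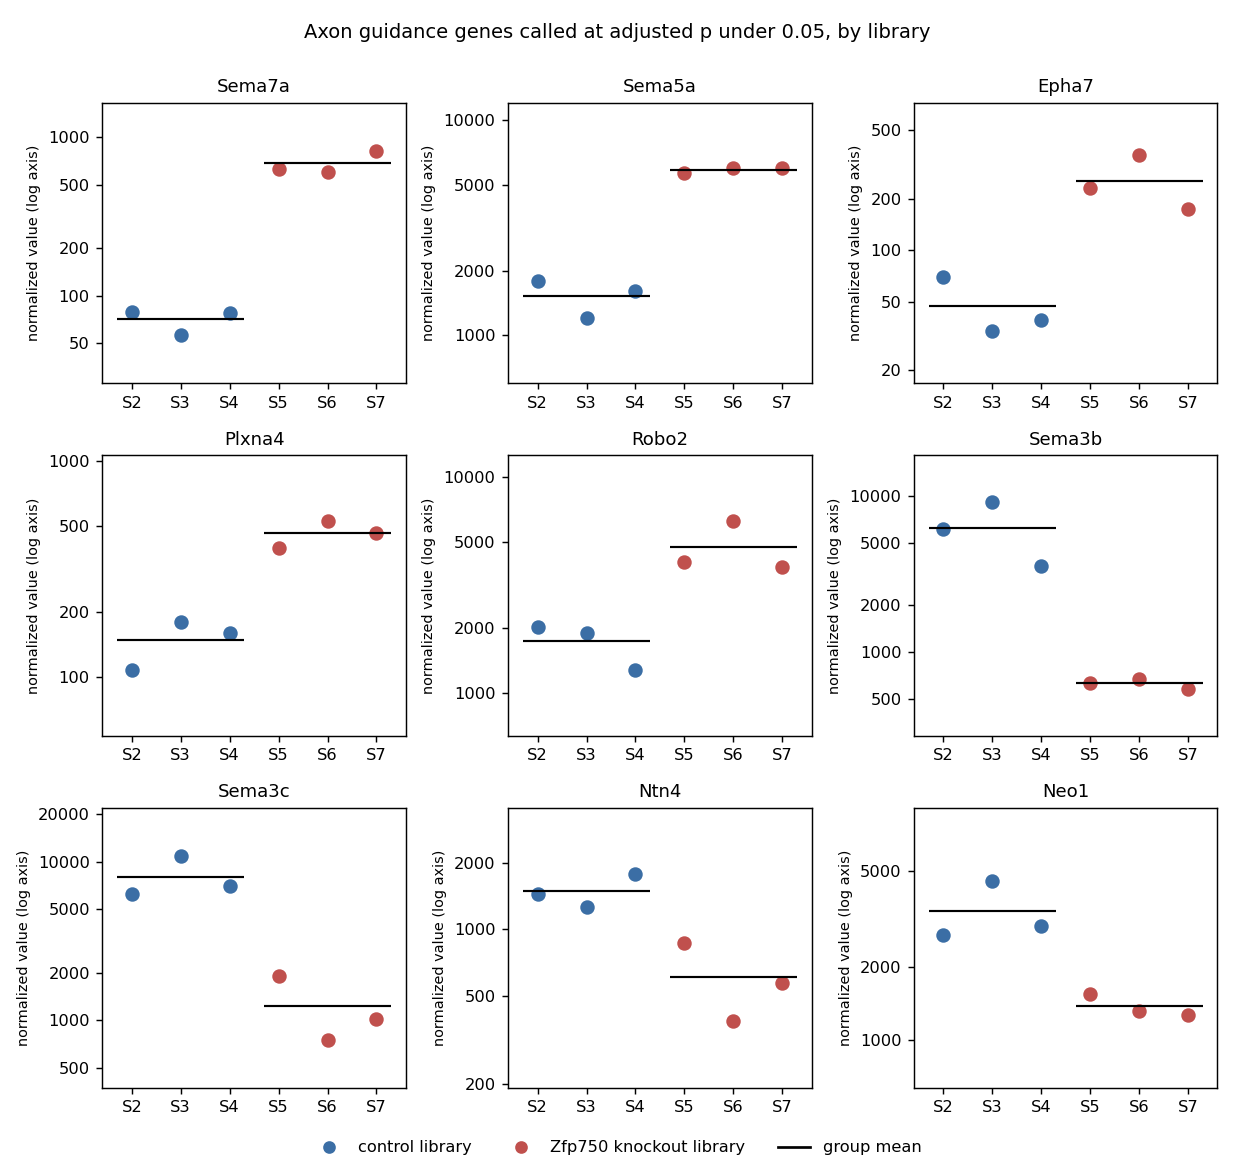
Normalized value (log axis, vertical) of each of the 9 called members in the 3 control libraries S2 to S4 and the 3 knockout libraries S5 to S7 (horizontal), with lines at the arithmetic group means. In each panel the groups do not overlap: Sema7a lies at 56.2 to 78.8 in the controls but at 599 to 815 in the knockouts, and Sema3b at 3574 to 9135 and 582 to 667.

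Among Slits and Robos, Robo2 rose. Robo2 (ENSMUSG00000052516, chromosome 16, 73688727 to 74208714 on the minus strand), a transmembrane receptor of Slits, was at 2032, 1909 and 1277 in the controls and at 4058, 6270.0 and 3812 in the knockouts. All knockouts were above all controls, S6 the furthest (log2 fold change 1.43 ± 0.26, adjusted p = 0.0221), and without S2 or S6 the gene was not called (adjusted p = 0.0636 and 0.0726). Robo1, its paralog, was at 1864, 2238 and 1674 in the controls and at 1515, 1895 and 1237 in the knockouts, with overlapping groups (-0.32 ± 0.20, adjusted p = 0.385). Per kilobase, Robo1 was therefore the higher of the pair in every control and Robo2 in every knockout. Robo4, the receptor of endothelial cells, was at 15.2, 31.2 and 5.05 in the controls and at 30.4, 42.8 and 190.1 in the knockouts (1.62 ± 0.66, adjusted p = 0.197). Its highest value was in S7, where the sum of 8 endothelial markers was also the highest (1439 to 2269 in the controls; 2977, 4642 and 9548 in S5, S6 and S7), and the part of endothelial cells was not tested. Of these markers Flt1 (38.7 to 96.6 against 1454 to 3046), Vwf and Cldn5 were higher in every knockout, while the groups overlapped for the other 5, Tek among them (588 to 1898 against 474 to 941).

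The ligand Slit3 was the highest Slit per kilobase in all 6 libraries, at 77.1% to 79.3% of the family's total in the controls, against 85.5% to 92.7% in the knockouts. Its normalized values were 11484, 13477 and 11410.1 in the controls and at 21733, 16315 and 19098 in the knockouts. The groups did not overlap, but the log2 fold change of 0.65 ± 0.22 did not pass the test as deposited (adjusted p = 0.130). With every library scaled to a common total it did (0.97, adjusted p = 0.0230), but with upper quartile scaling it did not. Slit2 was at 6083, 7603 and 5670.2 in the controls and at 6988, 4061.5 and 2849.8 in the knockouts, with overlapping groups (-0.56 ± 0.32, adjusted p = 0.343).

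In the netrin family the basement membrane member Ntn4 fell, and the receptor Neo1 fell with it. Ntn4 (ENSMUSG00000020019, chromosome 10, 93476543 to 93583070 on the plus strand), which binds laminins, was at 1446, 1258 and 1776 in the controls and at 871, 385 and 571 in the knockouts. Every knockout was below every control (log2 fold change -1.34 ± 0.29, adjusted p = 0.0391). This was the least stable call of the 9: it was lost without each single library other than S5 (adjusted p = 0.0687 to 0.132), on common totals (adjusted p = 0.107) and without the intensity trend (adjusted p = 0.0640). Ntn1, the secreted netrin, held 64.8% to 67.7% of the per-kilobase total of the family in the controls, against 79.1% to 83.5% in the knockouts. It was at 7992, 11510.5 and 7679 in the controls and at 14776, 11681 and 11605 in the knockouts, groups that only just did not overlap (0.50 ± 0.23, adjusted p = 0.252; 0.82 with adjusted p = 0.0280 on common totals). Ntn3 was at 103, 192 and 108 in the controls and at 212, 252 and 234 in the knockouts (0.80 ± 0.27, adjusted p = 0.1252; adjusted p = 0.0366 on common totals). Its gene overlaps Tbc1d24 on the same strand in the table, so its reads may be shared. Neither Ntn1 nor Ntn3 was called with upper quartile scaling (adjusted p = 0.216 and 0.115). Ntng1, a lipid-anchored netrin-G that binds a synaptic adhesion partner and not Dcc, was at 139.8, 304 and 73.2 in the controls and at 29.4, 40.1 and 35.0 in the knockouts (-1.84 ± 0.46, adjusted p = 0.0600; 0.0453 on common totals and 0.0160 without S4). Ntn5 and Ntng2 had log2 fold changes of -0.16 and -0.11. Ntng2 overlaps a long noncoding RNA gene on the same strand and Ntn5 overlaps Sec1 on the opposite strand, so both counts are uncertain.

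Neo1 (ENSMUSG00000032340, chromosome 9, 58781970 to 58943725 on the minus strand) encodes neogenin, a receptor of netrins and of repulsive guidance molecules. It was at 2721, 4551 and 2954.5 in the controls and at 1542, 1314 and 1264 in the knockouts. The groups were separate, with S3 the highest control (-1.27 ± 0.22, adjusted p = 0.0184), and without S6 or S7 the gene was not called (adjusted p = 0.0826 and 0.0676). Its relative Dcc, the classical netrin receptor, was near the floor, with 15, 2 and 7 estimated reads in S2, S3 and S4 and at most 2 in a knockout library, and was not tested. Unc5c, a receptor of the repulsive response to netrin, was at 39.4, 91.2 and 20.2 in the controls and at 98.1, 805 and 474 in the knockouts. This was the largest positive fold change among members that did not pass the test (2.74 ± 0.76, adjusted p = 0.0812), and its lowest knockout, S5, lay close to its highest control, S3. It passed the test on common totals (adjusted p = 0.0345) and without S5 (adjusted p = 0.0163), but not with upper quartile scaling. Unc5a was at 45.7, 51.2 and 47.9 in the controls and at 92.2, 59.2 and 120.1 in the knockouts (0.75 ± 0.29, adjusted p = 0.181), and Unc5b, the Unc5 gene with the highest level per kilobase in each library, had overlapping groups (-0.10 ± 0.21, adjusted p = 0.816).

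**Figure D3:**
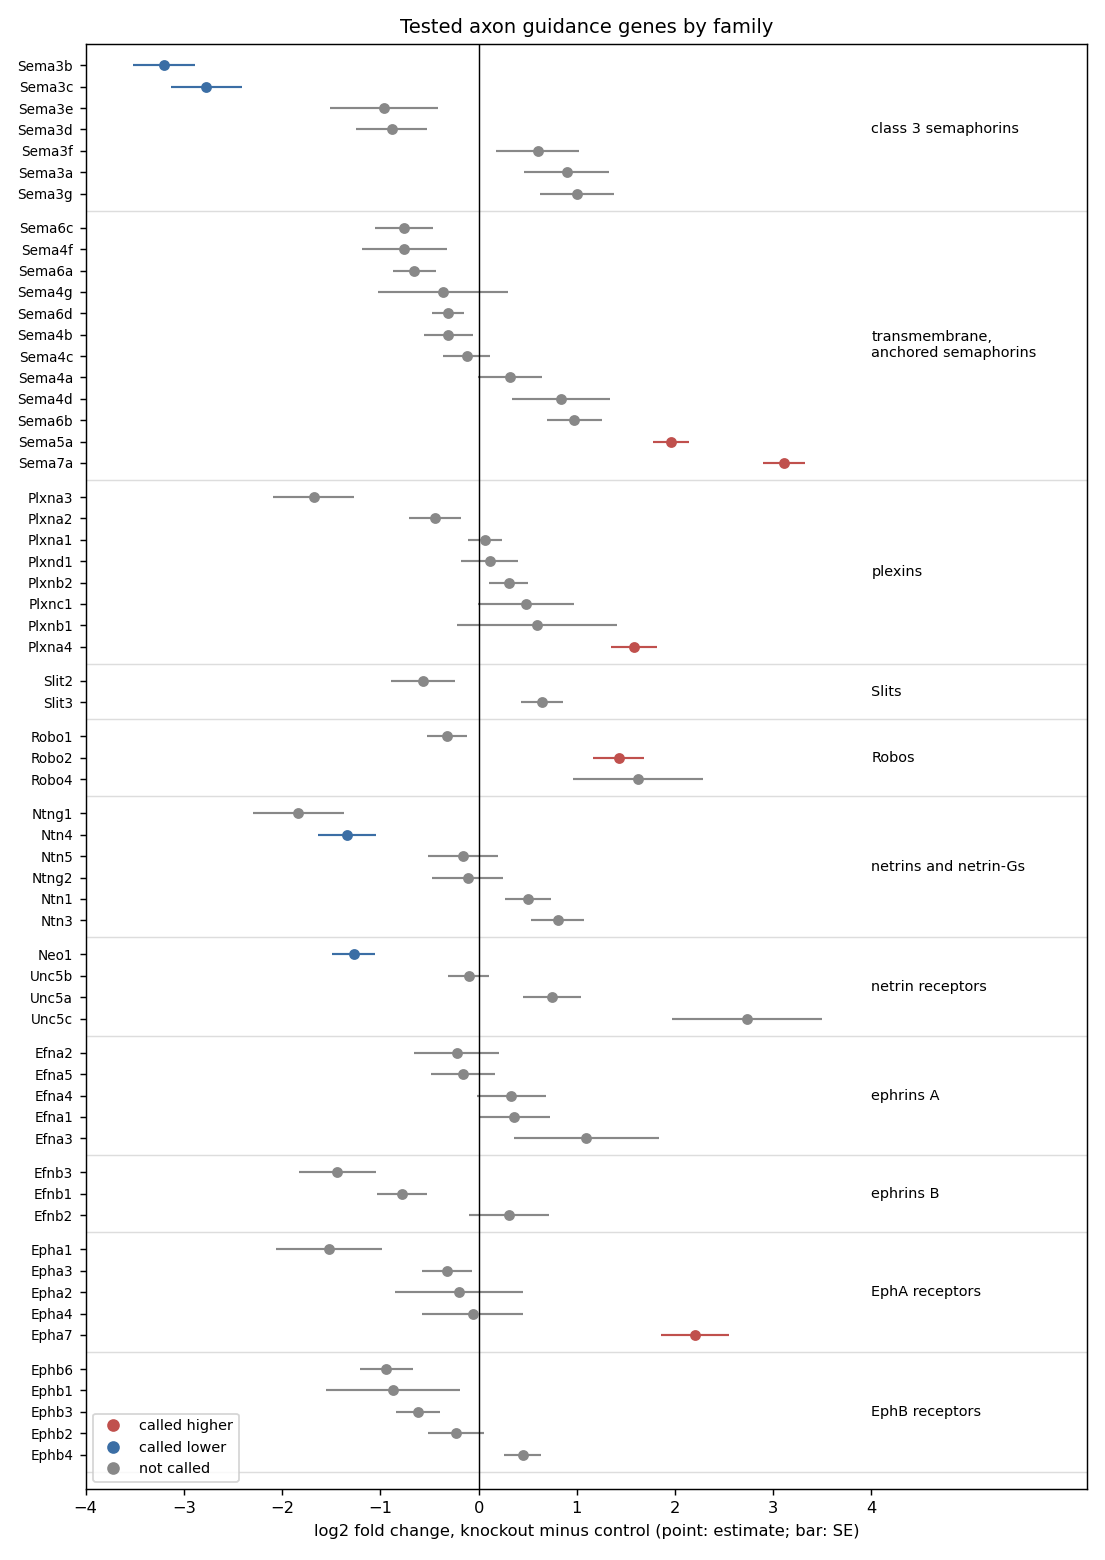
Log2 fold change, knockout minus control (horizontal axis; bars are SE), of the 60 tested members, grouped by family (vertical axis), red where called higher, blue where called lower and grey where not called. The called genes span -3.20 (Sema3b) to 3.11 (Sema7a), and no ephrin and no EphB receptor is called.

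Of the ephrins and their receptors, 1 of 18 tested genes was called. Epha7 (ENSMUSG00000028289, chromosome 4, 28813131 to 28967500 on the plus strand), a receptor tyrosine kinase for A-type ephrins, rose from 69.9, 33.7 and 39.5 in the controls to 229, 359 and 174 in the knockouts. The lowest knockout was well above the highest control (log2 fold change 2.20 ± 0.35, adjusted p = 0.0129), and the call was lost without S6 (adjusted p = 0.0552). The other tested EphA receptors did not pass the test. Epha1 was at 272, 137 and 741 in the controls and at 77.5, 111 and 115 in the knockouts (-1.52 ± 0.54, adjusted p = 0.147). It overlaps the abundant Zyx on the opposite strand in the table, so its counts are uncertain. Epha3, the EphA receptor with the highest mean level per kilobase, was at 593, 608 and 623 in the controls and at 735, 394 and 391 in the knockouts (-0.32 ± 0.26, adjusted p = 0.494). Epha2 and Epha4 had log2 fold changes of -0.20 and -0.06.

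EphB receptors and the ephrins themselves had 0 calls by limma among 13 tested genes, 5 of them with an unadjusted p under 0.05, where 23.2% of all tested genes had one. Ephb6, a receptor that lacks kinase activity, was at 487, 797 and 714 in the controls and at 262, 308 and 469 in the knockouts, without overlap (-0.94 ± 0.27, adjusted p = 0.0901). Ephb3 was the highest EphB receptor per kilobase in 5 of the 6 libraries and Ephb4, known from veins, in S7. Ephb3 was at 2089, 3128 and 2743 in the controls and at 2192, 1611 and 1407 in the knockouts (-0.61 ± 0.23, adjusted p = 0.159), and Ephb4 had a log2 fold change of 0.45 ± 0.19 (adjusted p = 0.207). Of the transmembrane B-type ephrins, Efnb3 was at 95.3, 209.8 and 94.2 in the controls and at 41.2, 59.2 and 25.5 in the knockouts (-1.44 ± 0.39, adjusted p = 0.0775). Efnb1 was at 812, 896 and 1369 in the controls and at 672, 440.2 and 647 in the knockouts, also without overlap (-0.78 ± 0.25, adjusted p = 0.118). Efnb2, known from arteries, was at 874, 1077 and 1410 in the controls and at 684, 1835 and 2004 in the knockouts, with S5 below all controls (0.31 ± 0.41, adjusted p = 0.700). The lipid-anchored A-type ephrins had log2 fold changes of -0.22 to 1.10. Efna3 was the furthest from 0 (adjusted p = 0.420), and Efna5, which had their highest mean level per kilobase, was at 818, 1508 and 1630 in the controls and at 806, 1544 and 1169 in the knockouts (-0.15 ± 0.33, adjusted p = 0.818).

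Groups did not overlap for 24 of the 60 tested members (40%; 28.8% of all tested genes), 12 higher and 12 lower in the knockout, beside 15.7% and 13.1% of all tested genes in those directions. The 9 called genes are among them, and the 15 others are Sema3g, Sema6a, Sema6b, Sema6d, Plxna3, Slit3, Ntn1, Ntn3, Ntng1, Unc5a, Unc5c, Efnb1, Efnb3, Epha1 and Ephb6. Scaling bears on some of these: on common totals, which moved the median log2 fold change of all tested genes by 0.30, the calls became 10 higher and 4 lower. Ntn1, Ntn3, Slit3, Sema6b and Unc5c then joined the genes called higher, and Ntng1 took the place of Ntn4 among the genes called lower. Over all tested genes, common totals gave 78.9% of calls as higher, against 61.4% as deposited. Upper quartile scaling moved the median log2 fold change of all tested genes by -0.02. With it the called members were the same 9 as deposited.

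Some members varied widely among the controls. In 8 tested members control S4 was at least 3 times control S3, with S2 between them. These were Plxnb1, Ephb1, Efna3, Sema4g, Epha1, Epha2, Epha4 and Sema3e. The share of all tested genes with this pattern was not computed. Marker sums of keratinocytes, leukocytes, neutrophils, endothelium, lymphatic endothelium and fat cells also had S4 highest and S3 lowest among the controls. Plxnb1, the receptor of Sema4d, was at 162, 64.9 and 929 in the controls and at 295, 289.7 and 445 in the knockouts. Epha2, an ephrin receptor of keratinocytes, was at 175, 92.4 and 505 in the controls and at 81.4, 212 and 309 in the knockouts. The part of keratinocytes or of the other cell types in these values was not tested.

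The 6 members below the filter were Slit1, Sema5b, Plxnb3, Epha10, Dcc and Unc5d. None of them exceeded 24 estimated reads in a library. In a fit without the filter Dcc had a log2 fold change of -0.81 ± 0.33 (adjusted p = 0.222), and the other 5 lay between -0.25 and 0.06.

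Ratios between members of 1 library do not depend on how libraries are scaled. The pairs below were chosen after the values were seen, so they are given without a test, per kilobase of transcript. Sema3c stood at 5.71, 6.37 and 11.8 times Sema3a in S2, S3 and S4 (controls) and at 1.49, 0.247 and 0.546 times in knockouts S5, S6 and S7. The order of these secreted ligands was thus turned in S6 and S7. Plxna4 stood at 0.119, 0.114 and 0.1247 times Plxna3 in the controls and at 0.581, 1.42 and 2.30 times in the knockouts. Robo2 stood at 0.960, 0.751 and 0.672 times Robo1 in the controls and at 2.36, 2.91 and 2.71 times in the knockouts, and Slit3 at 3.38 to 3.83 times Slit2 in the controls and 5.93 to 12.8 times in the knockouts. In each of these pairs the groups did not overlap. Among the netrin genes, Ntn1 was at 3.69, 3.18 and 3.26 times Neo1 in the controls and at 12.03, 11.2 and 11.5 times in the knockouts.

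**Figure D4:**
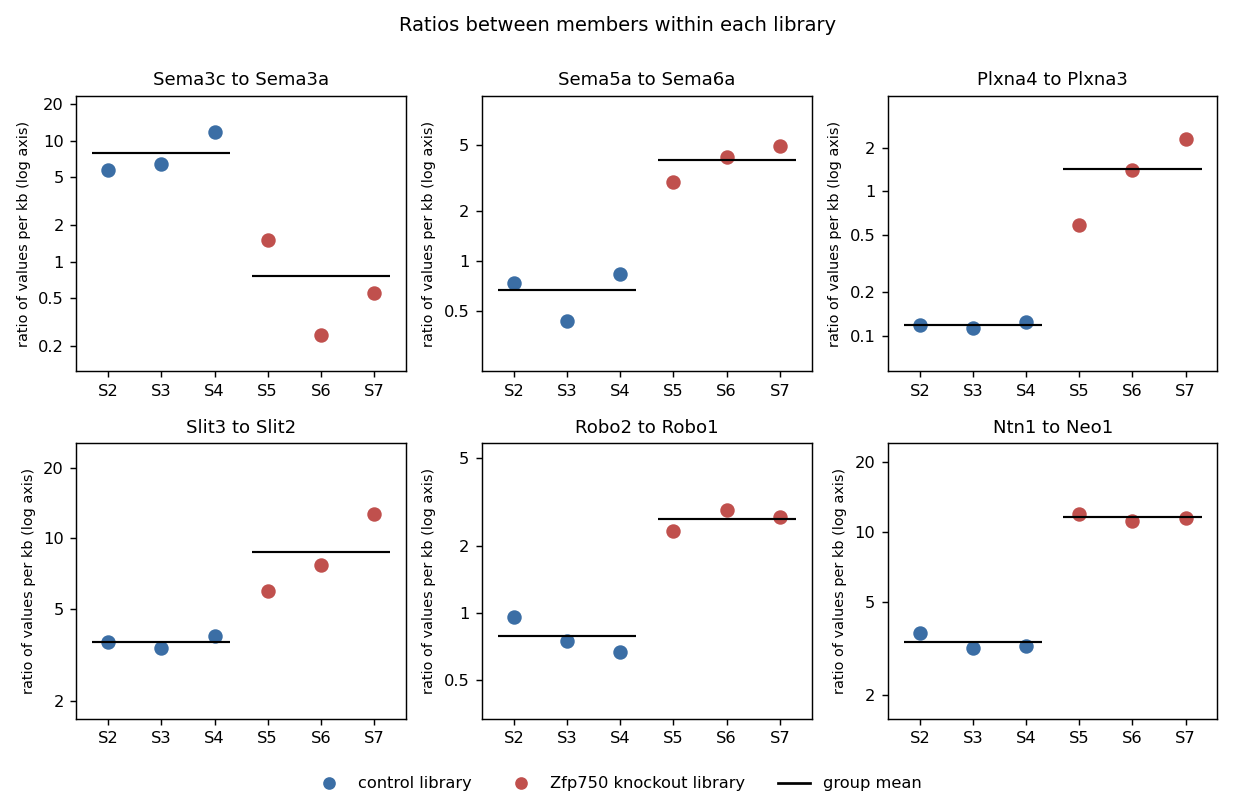
Ratio of normalized values per kilobase between 2 members of the same library (log axis, vertical) in the control libraries S2 to S4 and the knockout libraries S5 to S7 (horizontal), with lines at the arithmetic group means. The Ntn1 to Neo1 ratio is 3.18 to 3.69 in the controls but 11.2 to 12.03 in the knockouts, and the Robo2 to Robo1 ratio crosses 1 between the groups.

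Genes that act beside the members were taken from 5 lists of co-receptors, other guidance ligands and signalling proteins. Over the lists, 15 of 123 tested genes rose and 5 fell, or 16.3% called, beside 6.71% of all tested genes (4.12% higher and 2.59% lower). The lists were chosen with earlier results of these data known, so this share and those below are no test of the lists. Of 21 tested co-receptors 5 rose and 1 fell (28.6% called), with 3 called higher in the fits without S2 or S6. Gpc1, a cell-surface glypican that binds Slits, was at 221, 158 and 404 in the controls and at 3796, 12172 and 13996 in the knockouts, a wide gap (log2 fold change 5.11 ± 0.53, adjusted p = 0.00309). Chl1, an adhesion molecule that partners neuropilin 1 in the response to Sema3a, was at 159, 422 and 157 in the controls and at 5419, 4815 and 5088 in the knockouts (4.48 ± 0.36, adjusted p = 0.00116). Ptk7, a pseudokinase linked to plexin signalling, rose by a log2 fold change of 2.01 ± 0.27 (adjusted p = 0.00724). Nrp1, the neuropilin of Sema3a, was at 1342, 1269 and 1177 in the controls and at 2490.7, 2210.3 and 2197 in the knockouts (0.86 ± 0.14, adjusted p = 0.0150; at most 0.0603 in the fits without 1 library, lost without S2 or S6). Nrp2 had overlapping groups (-0.07 ± 0.33, adjusted p = 0.925). Itga1, a partner chain of the integrin that binds Sema7a, also rose (1.09 ± 0.17, adjusted p = 0.0133; lost without S2, S6 or S7), and Cntn1 fell (-1.58 ± 0.28, adjusted p = 0.0202; lost without S2, S3 or S7, and on common totals at adjusted p = 0.0511).

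Of 23 tested other guidance ligands and their partners 7 rose and 0 fell (30.4% called), although the median log2 fold change of the list was -0.20. The count called higher was 2 without S2 or S6, 3 without S7 and 4 without S5 or without the intensity trend. A gene of this list was called lower without S4 and on common totals, and 2 were without S5. Spon1, which encodes F-spondin, was at 1053, 693 and 1345 in the controls and at 10108, 20154 and 14854 in the knockouts (3.85 ± 0.32, adjusted p = 0.00148). Rtn4rl2, a relative of the Nogo receptor, was at 20.3, 12.5 and 8.41 in the controls and at 219, 403 and 434 in the knockouts (3.95 ± 0.34, adjusted p = 0.00162). Both were called in all fits run. Draxin, a netrin-binding axon repellent, rose by 1.84 ± 0.34 (adjusted p = 0.0232; lost without S2, S5, S6 or S7). Adgrl1, a latrophilin, rose by 1.30 ± 0.23 (adjusted p = 0.0189; lost without S2 or S6). The rise of Rgma, a ligand of neogenin, was called (0.72 ± 0.17, adjusted p = 0.0487) but in none of the 6 fits that left out 1 library (adjusted p = 0.0517 to 0.180).

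Signalling proteins inside the cell made up the remaining 3 lists. The share called was 6.67% on the plexin side and 4.17% on the ephrin side, no more than the 6.71% of all tested genes, and 16% on the Robo and netrin side. On the plexin side 1 of 30 tested genes rose, the small GTPase gene Mras (1.28 ± 0.18, adjusted p = 0.00901; lost without S2), and 1 fell, Mical1, an oxidase that acts on actin below plexins (-1.19 ± 0.28, adjusted p = 0.0478; lost without S2, S3, S6 or S7 and on common totals). On the Robo and netrin side 1 of 25 rose and 3 fell. Srgap3, a GTPase-activating protein that binds Robo receptors, was at 1608, 2297 and 1111 in the controls and at 519.7, 372 and 295 in the knockouts (-2.03 ± 0.31, adjusted p = 0.0107; lost without S2 or S6). Prkca, a protein kinase C gene, was at -0.92 ± 0.20 (adjusted p = 0.0403; lost without S2, S3, S6 or S7 and on common totals), and Evl, an actin regulator of the Ena/VASP family, rose (0.93 ± 0.21, adjusted p = 0.0433; called only without S4 among the fits that left out 1 library). The Srgap3 relative Srgap1 fell by 0.99 on the log2 scale (adjusted p = 0.0472; called only without S4 among those fits, and not on common totals). On the ephrin side 1 of 24 rose, Sipa1l1 (1.00 ± 0.23, adjusted p = 0.0458; called only without S4 among those fits). Without the intensity trend Rgma, Mical1, Prkca, Srgap1, Evl and Sipa1l1 were not called either. Evl and Sipa1l1 were also lost with upper quartile scaling, Rgma and Srgap1 without the filter, and Rgma with robust variance estimation. Of the 20 called genes of the 5 lists, 5 were called in all 6 fits that left out 1 library: Chl1, Ptk7, Gpc1, Rtn4rl2 and Spon1.

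**Figure D5:**
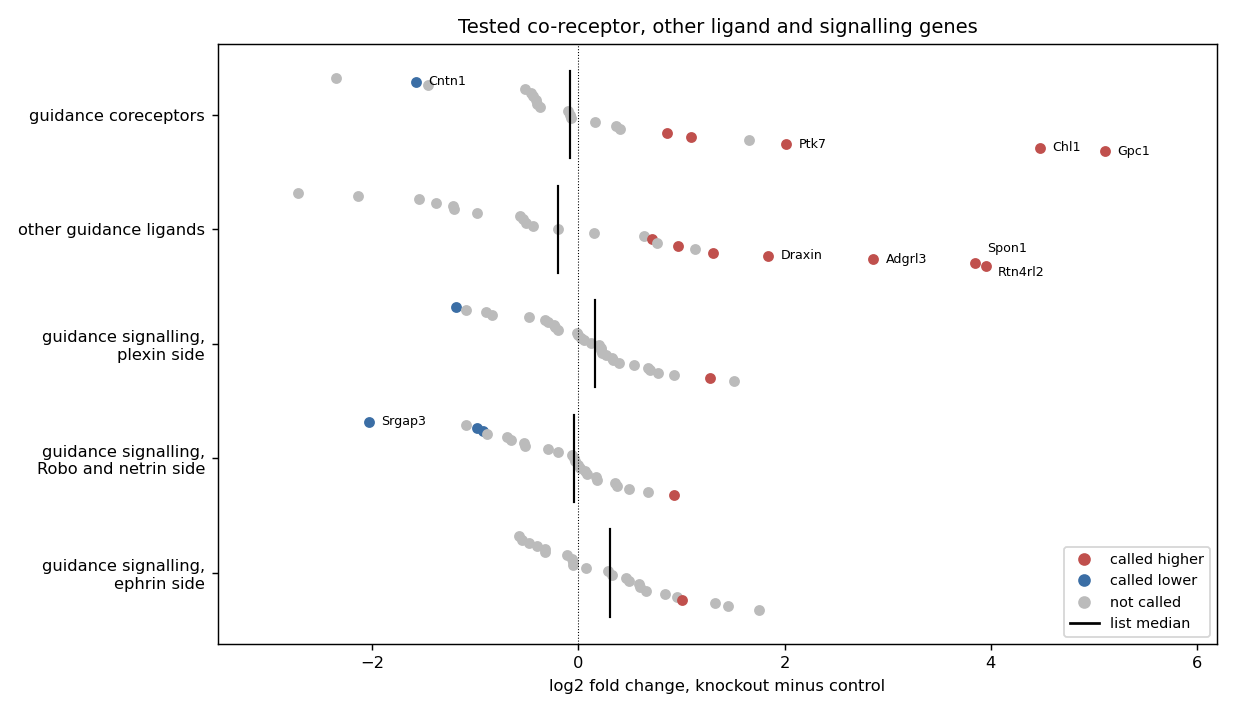
Log2 fold change, knockout minus control (horizontal axis), of each tested gene of the 5 lists of co-receptors, other ligands and signalling genes (rows), red where called higher, blue where called lower, grey where not called, with a black line at each list's median. Gpc1 (5.11) and Chl1 (4.48) lie furthest to the right, and the list medians lie between -0.20 and 0.31.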

How the data were processed

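Per the file headers and the labels, the authors deposited 1 table of normalized counts, treated here as a signal: from the values, estimated reads divided by 1 size factor per library (0.787 to 1.26), of which 78.7% to 81.2% up to 1000 reads are whole within 0.05. Count models were therefore not run. Partek 9.0.20.0202 and TopHat2 2.1.0 appear in the submitters' processing notes, with no role given. The build, the annotation and the use of strand were not given in the sources used here. Genes that overlap others are therefore uncertain. Columns name the group but no numbered sample. Nothing says that libraries are separate mice, and the p-values then reflect only differences among these samples, in part perhaps technical.

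Groups were compared with limma 3.58.1 in R 4.3.3 (2-sided, with an intensity trend) after adding a pseudocount of 9.15 and taking log2. This is 0.5 per 1000000 of the average total and understates changes of low genes. P-values were adjusted by Benjamini-Hochberg over 15935 genes. The script was tested on simulated data. Ratios and shares used GENCODE M21 transcript lengths. Members and lists were chosen with earlier results of these data known. Named genes were all called members, the most changed uncalled and the highest member of each family, those with separate groups and up to 4 called genes a list; others named in the text were chosen after their values were seen. Alternatives covered the pseudocount, filter, scaling, trend and each library left out.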

Additional observations from a re-analysis of the deposited data

How the results depend on the processing

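Over all tested genes 1070 were called, and 337 to 1285 in the fits that left out 1 library (337 without S2, 598 without S3, 345 without S6, 503 without S7). Members called higher numbered 5, and 2 to 6 in these fits. Members called lower numbered 4, and 2 to 6. The lowest counts came without S6 (2 higher, 2 lower) and without S7 (2 lower), and the highest without S5. Members with separate groups numbered 24, and 26 to 33 with 1 library less. Leaving out a library can only keep or raise this count, so the rise is no check of the separation. Scaling to a common total gave 10 members called higher. Of 429 pairs of a named member and an alternative, 401 kept direction and side of the threshold, 13 lost the call, 9 gained one and 6 changed sign. Only 9 of the 31 named members were called, so most pairs that kept their side were of uncalled genes. The 13 losses all fell on called members, namely Ntn4, Neo1, Robo2, Epha7 and Plxna4. The sign changes were in uncalled members: Efna5 (0.17 on common totals; -0.46 to 0.089 with 1 library left out, above 0 without S4, at 0.028, or S5), Plxna1 (-0.021 to 0.15 with 1 library left out, below 0 without S2, at -0.014, or S7) and Sema6d (0.0065 on common totals). The causes were not tested. No paired analysis was possible because the value columns carry no replicate number of the labels. With 3 libraries a group, changes of members near the floor of 3 reads were not detectable.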

Other observations

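The ratio of Ntn1 to Neo1 per kilobase had an SD of 0.27 around 3.38 in the controls and of 0.44 around 11.6 in the knockouts (n = 3 each), although Ntn1 and Neo1 each varied by more than that relative to their means between libraries. The pair was chosen after its values were seen.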
